A study of Mus musculus with 6 samples.

Results

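The chromatin of 9 mouse genes that direct or mark bone and cartilage fate was followed in white preadipocytes: Runx1, Runx2, Runx3, Cbfb, Sp7, Sox9, Msx2, Dlx5 and Alpl. Their accessible sites were taken as every summit, the position of highest signal in a peak, that lay in the gene body or within 50 kb of it in mm10 with the GENCODE M21 gene models. Over the 6 libraries this gave 2609 of 1797083 listed summits. Of these, 2191 fell in 255 of the 179248 windows of about 0.5 kb that were tested across the genome. The other 418 (16.0%) lay in no tested window. Cells came from inguinal white adipose tissue of mice aged 8 to 12 weeks, were grown on collagen-coated plates and were assayed at day 0, before any adipogenic treatment, by omni-ATAC, in which a transposase cuts and tags open DNA. There were 3 libraries from wild-type mice (WT) and 3 from Hmgn1-/- Hmgn2-/- mice (DKO), which lack both of these nucleosome-binding proteins in every tissue, all with C57BL/6 as the strain label. The study asked what HMGN proteins do in adipocyte browning, and the comparison made here was DKO against WT. The labels do not say whether libraries of a genotype came from separate animals, so that the p-values below measure the spread between these libraries. In such bulk samples a change in the share of cells with an open site cannot be told from a change in every cell.

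RUNX proteins bind DNA through a runt domain and need the non-DNA-binding partner CBFB for tight binding. Each Runx gene has a distal promoter, P1, and a proximal promoter, P2, which give proteins with different amino termini. RUNX2 starts osteoblast differentiation and acts upstream of the zinc finger factor Sp7 (osterix), SOX9 is the master factor of cartilage, the homeobox factors MSX2 and DLX5 act in skull and limb bone, and Alpl encodes the tissue-nonspecific alkaline phosphatase that osteoblasts need for mineral deposition. Fat, bone and cartilage cells arise from related mesenchymal progenitors.

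Each library listed 299433 to 299620 summits, so that all lists were of nearly the same length but ended at different strengths, with a lowest -log10 p of 3.54 to 5.63. The median fold enrichment, the signal at the summit over the local background, was 4.55 to 5.87 in WT and 4.35 to 4.82 in DKO, with WT replicate 3 the highest by both measures. Fold changes were computed after the 6 libraries had been put on one scale. Without it, the median log2 change over all windows was -0.14 instead of 0.01, and values are given below as deposited beside changes on the common scale. The Hmgn2 promoter was listed in all WT libraries (7.89, 7.53 and 9.45) and in no DKO library, while the Hmgn1 promoter was listed in all 6, which leaves the labels unchecked at that gene. Of the 12 preadipocyte and mesenchymal markers, 11 had a tested window at a start site (all but Ly6a), with a summed fold enrichment of 76.2 to 101 in WT and 76.2 to 87.0 in DKO. Of the 6 osteoblast and osteocyte markers only Bglap and Ibsp had a tested window, each listed in WT replicates 2 and 3 and in no other library, and Dmp1, Sost, Phex and Mepe had none. Of the 6 chondrocyte markers Col2a1, Col10a1 and Matn3 had one and Acan, Matn1 and Chad had none. The summed fold enrichment of the chondrocyte list was 14.4 to 24.3 in WT and 14.5 to 21.0 in DKO. All 4 endothelial markers, Cd68 and Adgre1 of 5 immune markers, Krt8 and Cdh1 of 3 epithelial markers and none of 3 muscle markers had a window. The endothelial sum was 33.3 to 42.1 in WT and 33.5 to 40.3 in DKO, although its members leaned both ways. Cdh5 was listed in DKO only, at 3.91, 7.09 and 4.26, and Pecam1 gave 16.9, 12.2 and 17.2 in WT and 11.1, 11.8 and 10.3 in DKO (log2 change -0.31, limma adjusted p = 0.297). The immune sum was 4.79 to 5.73 in WT and 5.78 to 9.85 in DKO, where a missing summit adds nothing. Adgre1 was listed only in DKO replicates 1 and 2, at 3.91 and 3.40. Cd68 gave 4.79, 5.73 and 5.38 in WT and 5.93, 6.26 and 5.78 in DKO. The epithelial sum was 5.84 to 10.6 in WT and 3.40 to 9.39 in DKO. The part of other cell types in the results below was not tested.

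No window at the 9 loci passed the test in either direction. With limma and Benjamini-Hochberg adjustment over all 179248 windows, 0 of 255 were lower and 0 were higher in DKO at an adjusted p of 0.05, against 0.0357% and 0.0234% of all windows. At an unadjusted p under 0.05 there were 33 of 255 (12.9%), against 11.8% of all windows. A second fit that kept only windows listed in all 6 libraries tested 156 of the 255 and again called 0 in each direction, against 0.59% lower and 0.285% higher among all windows in that fit, with 20 (12.8%) at an unadjusted p under 0.05, against 13.1% of all windows in it. The median log2 change was 0.08 over the 255 windows and 0.01 over all windows, with 159 windows above 0 and 96 below. Among all windows 92187 of 179248 were above 0. Without scaling, which moved all windows down together, 105 of the 255 were above 0 and 150 below (58614 of all windows were above 0), with medians of -0.06 over the 255 and -0.14 over all.

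On the common scale the WT and DKO values of 44 windows did not overlap, with 12 lower in DKO (4.71%, against 7.67% of all windows) and 32 higher (12.5%, against 8.76%). On the deposited values 27 were lower (12.5% of all windows were) and 12 higher (3.33% of all windows were). Of the 32 windows that were higher on the common scale 13 were at Runx1, 7 at Runx2 and 3 each at Runx3 and Sp7. These loci had 61, 63, 22 and 23 tested windows, of which 1, 4, 0 and 1 were lower without overlap on that scale. On the deposited values Runx1 had 3 lower and 6 higher, and Runx3 had 1 lower and 2 higher. Runx2 had 6 lower and 2 higher there, and Sp7 had 7 lower and 1 higher. The lean at Runx2 and Sp7 thus turned with the scaling, as it did over all windows. Listed in all WT and no DKO library were 2 windows (0.784%, against 1.23% of all windows), both at Runx2. Listed in all DKO and no WT library were 4 (1.57%, against 1.14%), 1 each at Runx1, Runx2, Runx3 and Sp7. In these 6 windows every library of the other genotype holds the same substituted value, 1.54 on the common scale, and the windows were kept through the genotype that lists them, so that their fitted changes and p-values are not read as evidence of a difference.

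**Figure D1:**
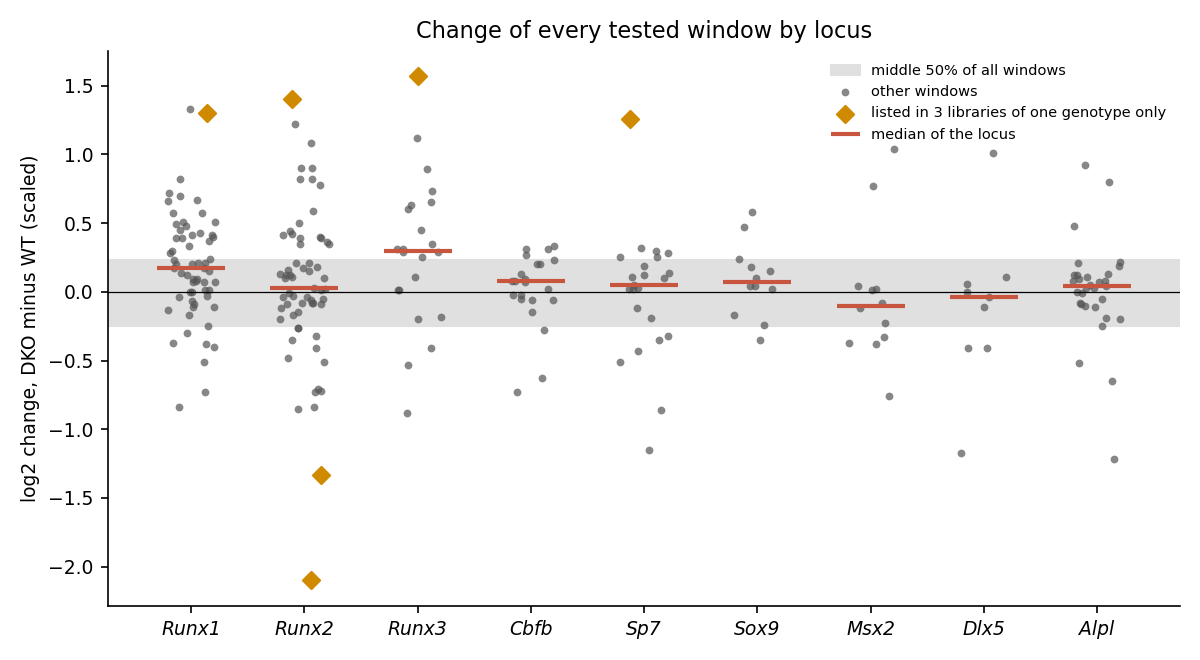
Log2 change (DKO minus WT, common scale) of each of the 255 tested windows, by locus. Points are windows, diamonds are the 6 windows listed in all libraries of one genotype and none of the other, red bars are locus medians and the grey band is the middle 50% of all 179248 windows (-0.25 to 0.23). The medians lie between -0.10 at Msx2 and 0.30 at Runx3, and the lowest value is the Runx2 intron site at -2.10.

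The sequences that the RUNX results turn on are printed first, from the GRCm38.p6 assembly (mm10) on the sense strand of each gene. Shown are the 200 bases before the outermost annotated start of both Runx1 promoters and of Runx2 P1. Capitals mark any match, on either strand, to the letters searched: TGTGGT for RUNX, TGACTCA or TGAGTCA for AP-1, GGAATG for TEAD, ACAAAG for SOX, TAATTA for homeobox factors and GGGCGG for the GC box. Of 32851 RefSeq promoters, 11.2% held the RUNX letters in the same 200 bases, 3.66% AP-1, 10.1% TEAD, 13.3% SOX, 3.73% homeobox and 31.0% the GC box. The Runx1 P1 stretch (chr16:92826150-92826349, minus strand) held none of them, Runx1 P2 (chr16:92697330-92697529, minus strand) held TEAD letters, and Runx2 P1 (chr17:44814798-44814997, minus strand) held RUNX letters.
Runx1 P1: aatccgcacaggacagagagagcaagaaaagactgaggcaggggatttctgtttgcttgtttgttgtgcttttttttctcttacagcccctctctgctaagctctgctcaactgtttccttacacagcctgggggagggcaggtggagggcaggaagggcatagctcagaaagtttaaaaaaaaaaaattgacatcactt
Runx1 P2: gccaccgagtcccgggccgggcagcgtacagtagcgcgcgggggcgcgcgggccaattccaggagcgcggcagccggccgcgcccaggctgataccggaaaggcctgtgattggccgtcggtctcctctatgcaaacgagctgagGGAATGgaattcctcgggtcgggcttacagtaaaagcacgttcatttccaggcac
Runx2 P1: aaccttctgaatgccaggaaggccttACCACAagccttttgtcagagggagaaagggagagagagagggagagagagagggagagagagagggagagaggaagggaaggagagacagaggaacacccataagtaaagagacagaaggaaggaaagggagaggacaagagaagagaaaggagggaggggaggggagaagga

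Runx1 (ENSMUSG00000022952.17), known best for blood stem cell formation and also expressed in mesenchymal progenitors, spans 225 kb of the minus strand of chromosome 16 (92601466 to 92826149). Its locus held 61 tested windows, 44 of them in introns, and both promoters were open in every library. At P1 (92825752 to 92826252, over the first exon) the fold enrichment was 4.44, 3.44 and 5.05 in WT and 6.48, 5.83 and 4.16 in DKO, in the order of the replicate numbers, as throughout. The deposited values overlapped and the scaled values did not, and the scaled change was 0.49 ± 0.24 (log2, SE; limma adjusted p = 0.453). At P2 (92697145 to 92697645, in an intron of the longer transcript) it was 7.87, 7.39 and 8.63 in WT and 9.79, 8.34 and 9.56 in DKO. Here 1 DKO library lay within the WT range, again only before scaling, and the change was 0.41 ± 0.15 (adjusted p = 0.309), but 0.21 without scaling and 0.13 by summit pileup. The highest window within 1 kb of a further annotated start inside P2, at 92696125 (window 92696516 to 92697016), gave 7.74 ± 1.15 (SD, n = 3) in WT and 7.20 ± 0.732 in DKO.

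P2 was the stronger of the Runx1 promoters in 6 of 6 libraries, by 1.43 to 2.3 times, and the P1 windows ranked between 76621 and 193674 by -log10 p while the P2 windows ranked between 16437 and 28543. The P2 to P1 ratio was 1.88 ± 0.237 in WT and 1.75 ± 0.479 in DKO (n = 3 each, two-sided exact permutation p = 0.60).

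At the 2 distal Runx1 sites of highest fold enrichment the WT and DKO values overlapped. The site 21.9 kb upstream of P1 (92847756 to 92848256, intergenic) reached 15.5 ± 2.49 in WT and 15.5 ± 2.85 in DKO. The intron site 13 kb upstream of P2 (92710069 to 92710569) reached 16.5 ± 1.66 and 13.3 ± 2.21, with a scaled change of -0.17 ± 0.12 (adjusted p = 0.591). The window with the smallest p lay in an intron 75.2 kb downstream of the inner start (92620628 to 92621128), with 10.5, 9.25 and 11.7 in WT and 12.6, 14.3 and 11.9 in DKO. All 3 DKO values were above all WT values, and the change was 0.48 ± 0.11 (adjusted p = 0.151, and 0.108 in the fit of windows listed in all 6 libraries). By -log10 p this window ranked between 6044 and 24114, ahead of the site 13 kb upstream of P2 (24700 to 41627) in every library. A site 116.7 kb downstream of the inner start (92579155 to 92579655, intergenic) was listed in DKO only, at 3.08, 4.21 and 3.60, and the nearest WT summits lay 1835 to 1883 bp away.

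Over the locus, 45 of 61 Runx1 windows had a positive scaled change (median 0.17), and 13 did not overlap in the higher direction against 1 in the lower (21.3% higher, against 8.76% of all windows). Without scaling the median was 0.01 with 32 windows above 0, beside -0.14 over all windows, and 6 did not overlap in the higher direction and 3 in the lower, against 3.33% and 12.5% of all windows. By median centring it was 0.19 (0.05 over all windows), by rank 0.12 (-0.04 over all) and by summit pileup 0.03 (-0.00 over all), with 31 of 61 windows above 0 in the last. RUNX letters were found in 30 of the 61 windows (49.2%, against 35.3% of all windows).

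**Figure D2:**
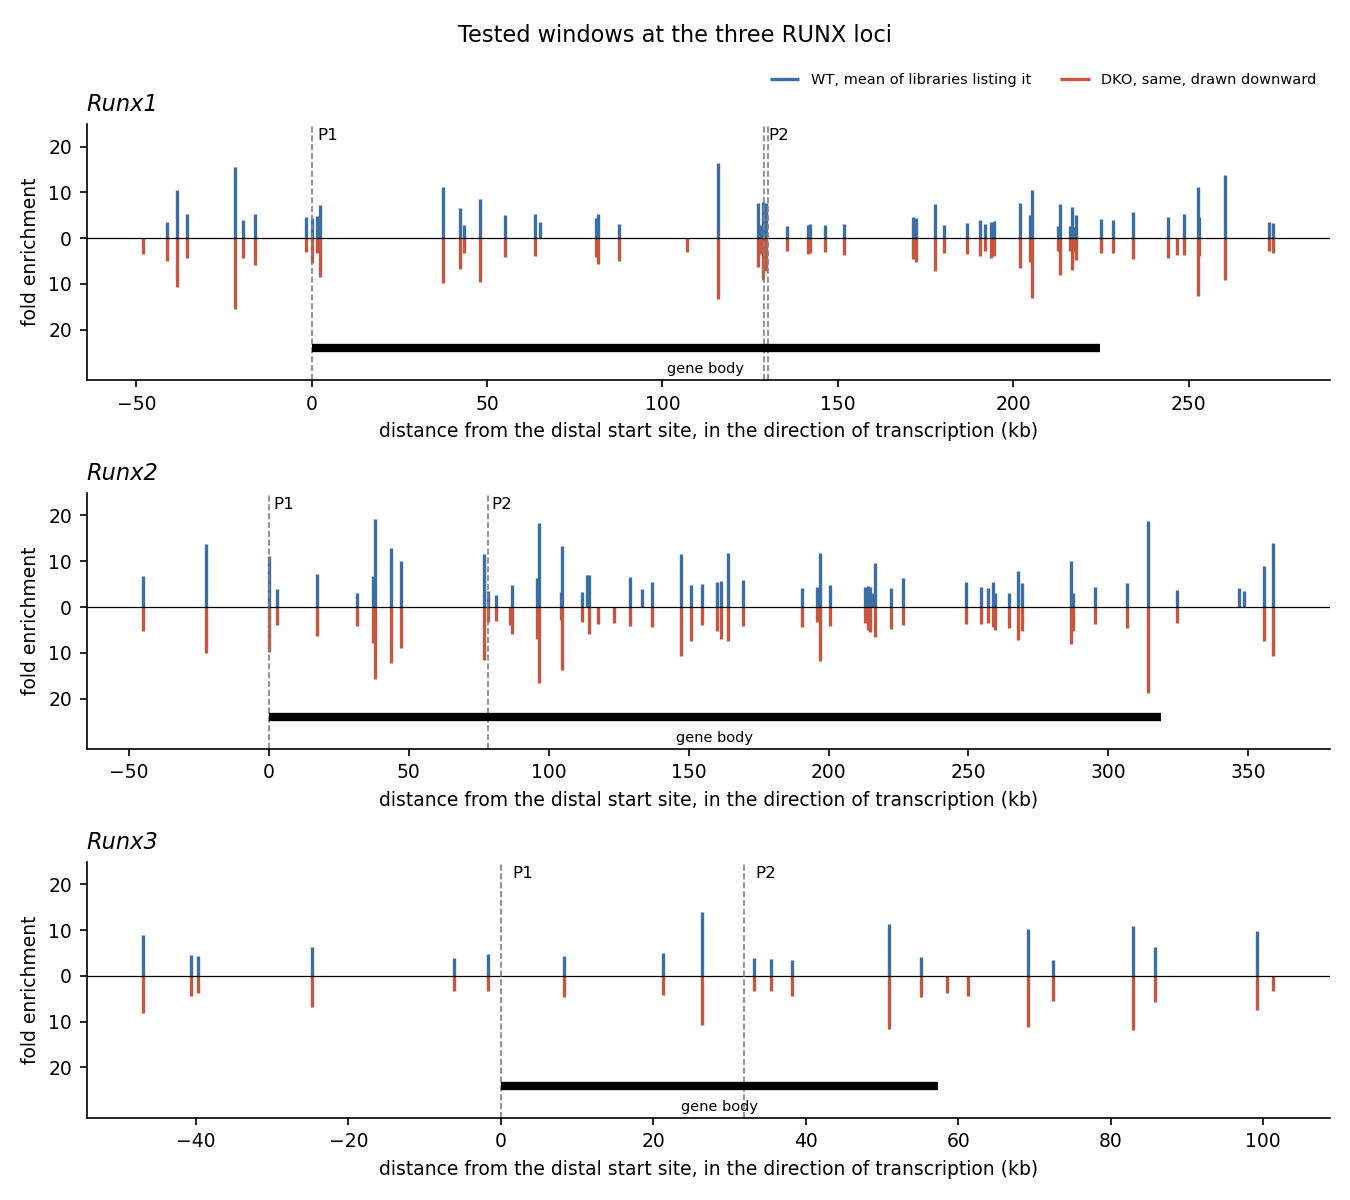
Mean fold enrichment of every tested window at Runx1, Runx2 and Runx3 against the distance from the distal start site in kb. WT is drawn upward and DKO downward, each as the mean of the libraries that list the window, dashed lines mark the start sites and the black bar the gene body. Runx1 and Runx2 carry windows at P1 and P2, and Runx3 has none at either start.

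Runx2 (ENSMUSG00000039153.16), the starting factor of osteoblast differentiation, spans 319 kb of the minus strand of chromosome 17 (44495987 to 44814797) and had the most sites, 63 windows. P1, which drives the bone isoform, lies in an intron of the neighbouring gene Supt3 (window 44814714 to 44815214). It gave 11.9, 10.2 and 11.2 in WT and 10.2, 9.01 and 10.4 in DKO. The deposited values overlapped and the scaled change was 0.01 ± 0.15 (limma adjusted p = 0.998). P2 had a low fold enrichment, at 3.35, 3.41 and 3.54 in WT and 3.09, 3.46 and 3.36 in DKO, with a change of 0.11 ± 0.31 (adjusted p = 0.941). By fold enrichment P1 was the stronger in 6 of 6 libraries, by 2.60 to 3.54 times, the opposite of the order at Runx1. The summit pileups were much closer. They were 42, 35 and 47 in WT and 36, 33 and 34 in DKO at P1. At P2 they were 34, 31 and 44 in WT and 29, 34 and 26 in DKO, and above P1 in DKO replicate 2. The gap in fold enrichment therefore lies largely in the local background. For each of these 2 comparisons of fold enrichment the two-sided exact sign-flip p over 6 libraries was 0.0312. That is the smallest that it can give, and adjustment over both leaves it there. The P1 to P2 ratio was 3.23 ± 0.279 in WT and 3.0 ± 0.359 in DKO (n = 3 each, exact permutation p = 0.50).

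Next are the centres, with 100 bases on each side, of 4 distal sites at Runx2 and Runx3, again on the sense strand. They are the strongest Runx2 site, the Runx2 site absent from the DKO lists and a site each at Runx2 and Runx3 that only DKO libraries listed. In the same central stretch of all 179248 windows, AP-1 letters stood in 23.6%, RUNX in 18.8%, TEAD in 16.3%, SOX in 15.3%, the GC box in 9.97% and homeobox in 3.24%. The strongest site (chr17:44500552-44500752, minus strand) held a pair of AP-1 matches and TEAD letters, the DKO-only Runx2 site (chr17:44728566-44728766, minus strand) held AP-1 letters, and the other sites (chr17:44701056-44701256, minus strand, and chr4:135181885-135182085, plus strand) held none of the letters searched.
Runx2 235.0 kb downstream of P2: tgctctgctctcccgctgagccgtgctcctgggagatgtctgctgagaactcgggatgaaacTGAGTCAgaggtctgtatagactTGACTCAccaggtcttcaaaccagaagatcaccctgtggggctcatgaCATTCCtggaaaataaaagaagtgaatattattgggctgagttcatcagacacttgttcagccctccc
Runx2 34.5 kb downstream of P2, WT only: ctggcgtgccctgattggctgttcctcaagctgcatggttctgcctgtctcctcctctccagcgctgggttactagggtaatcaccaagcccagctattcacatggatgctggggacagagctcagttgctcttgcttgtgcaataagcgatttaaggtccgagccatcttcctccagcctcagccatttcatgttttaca
Runx2 7.0 kb downstream of P2, DKO only: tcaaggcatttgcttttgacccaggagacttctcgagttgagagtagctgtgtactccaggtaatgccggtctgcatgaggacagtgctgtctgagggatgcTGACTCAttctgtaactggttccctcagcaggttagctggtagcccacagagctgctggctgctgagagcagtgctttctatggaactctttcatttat
Runx3 29.4 kb downstream of P2, DKO only: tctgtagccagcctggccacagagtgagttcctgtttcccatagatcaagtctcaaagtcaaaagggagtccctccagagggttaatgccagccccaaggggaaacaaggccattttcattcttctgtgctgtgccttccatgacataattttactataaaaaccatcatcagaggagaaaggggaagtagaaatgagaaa

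The strongest Runx2 site lay 235.0 kb downstream of P2 (44500402 to 44500902), in the annotated gene but past the end of the transcripts used. It gave 19.9, 17.6 and 18.9 in WT and 18.1, 17.9 and 20.2 in DKO, and ranked between 581 and 1543 of about 300000 summits in each library. Its change was 0.12 ± 0.12 (limma adjusted p = 0.705). The intron site 17.3 kb downstream of P2 (44718061 to 44718561) reached 18.3 ± 1.77 in WT and 16.6 ± 2.10 in DKO (n = 3), with a change of -0.01 ± 0.10.

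The smallest adjusted p of the 255 windows, 0.0581 by limma, belonged to the intron site 34.5 kb downstream of P2 (44700906 to 44701406). It was listed in every WT library, at 7.39, 5.90 and 7.98, and in no DKO library. All 3 DKO values in the fit are therefore the same substituted value, which has no spread, and the p follows in part from that. Over 12 alternatives it ran from 0.0132 to 0.353, under 0.05 with median centring (0.0356) and without the mean-variance trend (0.0132). The nearest DKO summits lay 633 to 639 bp away, at 6.72, 5.87 and 4.92, so that a neighbouring site was listed in DKO. Of the window, 33.1% was repeat-masked sequence.

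Other Runx2 windows leaned both ways. The intron site 71.6 kb downstream of P2 gave 4.83, 3.98 and 5.50 in WT and 6.03, 7.63 and 8.53 in DKO, with no overlap and a change of 0.82 (adjusted p = 0.163). The intron site 85.1 kb downstream gave 11.4, 10.5 and 13.5 in WT and 7.49, 9.02 and 6.07 in DKO, lower without overlap at -0.48 (adjusted p = 0.196). The site 267.4 kb downstream was WT only (4.09, 3.42 and 4.70) and the site 7.0 kb downstream DKO only (3.91, 3.40 and 4.26). The nearest WT summits to the latter lay 331, 737 and 767 bp away, at 4.09, 4.19 and 5.43. These 4 were named after their values were seen. Of the 63 windows 34 had a positive and 29 a negative change (median 0.03, and -0.07 without scaling).

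The Runx2 locus lies in a stretch of chromosome 17, from 40 to 45 Mb, where 1 window was called lower and 5 higher of 316. None of those 6 was among the 63 Runx2 windows, of which 14.3% had an unadjusted p under 0.05, against 25.3% of the other 253 in the stretch and 11.8% of all windows. Of all windows 0.0357% were called lower and 0.0234% higher.

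Runx3 (ENSMUSG00000070691.10), which acts in cartilage maturation and in T cells, lies on the plus strand of chromosome 4 (135120652 to 135177990). It was the only one of the 9 genes with no tested window within 1 kb of a start site. Within 1 kb of P1 there was a summit in DKO replicate 3 alone, at 3.28, and within 1 kb of P2 none in any of the 6 libraries. The locus nonetheless held 22 windows. The highest by mean fold enrichment, in an intron 5.4 kb upstream of P2 (135146797 to 135147297), gave 12.9, 10.9 and 18.3 in WT and 10.5, 12 and 9.96 in DKO, which overlap (change -0.18 ± 0.12, limma adjusted p = 0.542). The next, 19.1 kb downstream of P2 (135171365 to 135171865, intron), reached 11.3 ± 3.21 in WT and 11.6 ± 0.592 in DKO.

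The window of smallest p at Runx3 was the intergenic site 29.4 kb downstream of P2 (135181735 to 135182235), which was listed in all DKO libraries, at 4.75, 4.25 and 3.93, and in no WT library. The WT values in its fit are substituted, and the nearest WT summits lay 2596 to 6168 bp away. Of the 22 windows 17 had a positive change, with a median of 0.30, and of the scaling alternatives the median stayed positive in all 4, from 0.13 without scaling to 0.32. Runx3 lies 1.15 Mb from the targeted Hmgn2 gene, Alpl 3.77 Mb from it, and Runx1 3.29 Mb from Hmgn1. An effect of DNA that was inherited with the targeted allele cannot be told apart from the genotype there. Among 1417 windows within 5 Mb of Hmgn2, 0 were called and the median change was 0.05, and among 807 within 5 Mb of Hmgn1 1 was called lower and 1 higher, with a median of 0.07.

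Cbfb (ENSMUSG00000031885.14), the shared partner of the RUNX proteins, had the start-site window with the highest mean fold enrichment over the 6 libraries. In WT alone its mean was the same as that of Sox9 (12.3 each). It lies on the plus strand of chromosome 8 (105170674 to 105217989), and its start-site window (105170229 to 105170729) gave 11.7, 9.67 and 15.6 in WT and 14.1, 13.9 and 12.3 in DKO. The ranges overlapped before scaling and not after it, and the scaled change was 0.31 ± 0.11 (limma adjusted p = 0.294). By fold enrichment its 2 highest distal sites were the highest of those at all 9 loci. By -log10 p and by summit pileup the Runx2 site 235.0 kb downstream of P2 was ahead of both in every library. That site ranked between 581 and 1543, with pileups of 188 to 304. The Cbfb site 15.7 kb into the gene (105186408 to 105186908, intron) reached 24.0 ± 1.53 in WT and 23.7 ± 1.93 in DKO and ranked between 1062 and 2043. The intergenic site 49.5 kb upstream (105120952 to 105121452), whose nearest start is that of Gm8804, reached 25.3 ± 2.90 and 23.2 ± 0.735 and ranked between 7089 and 10133. The changes of these 2 Cbfb sites were 0.08 ± 0.09 and -0.02 ± 0.08. The smallest remaining p was in an exon of the neighbouring gene Gm3830, 6.0 kb upstream, with 10.9 ± 2.20 in WT and 11.6 ± 1.16 in DKO (adjusted p = 0.393).

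The bases before the Cbfb start (chr8:105170474-105170673, plus strand) held 3 GC boxes, and those before the Sox9 start (chr11:112782024-112782223, plus strand) held AP-1 letters. They are shown for their high means over the 6 libraries, and the gaps from Cbfb to Sox9 and from Sox9 to Runx2 P1 did not exceed both SDs.
Cbfb: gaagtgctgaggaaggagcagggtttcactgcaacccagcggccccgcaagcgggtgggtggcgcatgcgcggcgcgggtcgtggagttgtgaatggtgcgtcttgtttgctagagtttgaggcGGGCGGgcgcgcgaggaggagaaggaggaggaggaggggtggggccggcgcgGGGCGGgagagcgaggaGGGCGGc
Sox9: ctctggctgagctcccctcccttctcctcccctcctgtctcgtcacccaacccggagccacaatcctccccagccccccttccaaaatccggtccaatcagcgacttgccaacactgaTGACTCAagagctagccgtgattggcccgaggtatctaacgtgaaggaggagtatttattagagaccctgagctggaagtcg

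Sox9 (ENSMUSG00000000567.5), on the plus strand of chromosome 11 (112782224 to 112787760), had an open promoter in every library. Its start-site window (112781930 to 112782430) gave 12.5, 12.6 and 11.7 in WT and 10.7, 10.8 and 7.54 in DKO. The deposited values did not overlap and were lower in DKO, but on the common scale they did, with a change of -0.17 ± 0.16 (limma adjusted p = 0.705). The locus held 12 windows. The site 29.4 kb downstream (112811419 to 112811919) reached 8.14 ± 1.73 in WT and 9.99 ± 2.54 in DKO (change 0.47 ± 0.17, adjusted p = 0.290). The site 44.9 kb upstream (112737062 to 112737562), within the gene BC006965, reached 9.40 ± 2.38 and 7.18 ± 2.37 (change -0.24 ± 0.25). The smallest p was 42.1 kb downstream (112824053 to 112824553), with 5.26, 6.60 and 7.98 in WT and 9.06, 9.20 and 7.54 in DKO, a change of 0.58 ± 0.17 (adjusted p = 0.201).

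Sp7 (ENSMUSG00000060284.7), the osteoblast factor downstream of RUNX2, lies on the minus strand of chromosome 15 (102356606 to 102367182), and its start was weakly open. The window at the start (102366952 to 102367452) gave 4.26, 3.78 and 4.95 in WT, 3.80 and 5.60 in DKO replicates 1 and 2 and no summit in DKO replicate 3. The ranges overlapped (change -0.32 ± 0.45, limma adjusted p = 0.807), and the change was 0.22 without that library. Some summit within 1 kb of a start was listed in all 6 libraries, with a highest fold enrichment of 3.60 to 5.60. The stronger sites of this gene-dense locus lay elsewhere. The site 50.9 kb downstream (102315345 to 102315845), in an exon of Espl1, the separase gene, reached 15.9 ± 1.19 in WT and 14.7 ± 3.79 in DKO. The site 28.2 kb upstream (102394876 to 102395376) reached 9.77 ± 1.71 and 9.26 ± 1.93. The site 26.7 kb upstream (102393446 to 102393946) was listed in DKO only, at 3.09, 3.60 and 3.76, and the nearest WT summits lay 1380 to 1491 bp away, at 7.83 to 11.1.

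Msx2 (ENSMUSG00000021469.9), on the minus strand of chromosome 13 (53466884 to 53473074), had the only one of the 11 start-site windows plotted for the 9 genes whose groups did not overlap, lower in DKO, both with and without scaling. On the common scale 4 of the 11, Runx1 P1, Runx1 P2, Cbfb and Alpl, did not overlap in the higher direction. Of all start-site windows 4.35% were lower and 13.1% higher without overlap on that scale. Its start-site window (53472610 to 53473110) gave 7.92, 6.83 and 11.3 in WT and 5.97, 6.30 and 5.12 in DKO. All DKO values were below all WT values, and the change was -0.37 ± 0.16 with an unadjusted p of 0.044 and a limma adjusted p of 0.408. The site 46.0 kb downstream (53426499 to 53426999), in an intron of Gm2762, was likewise lower without overlap, at 12.2 ± 2.85 in WT and 8.12 ± 0.338 in DKO (change -0.38 ± 0.13, adjusted p = 0.252). The site 29.6 kb upstream (53502380 to 53502880, intergenic) went the other way, with 5.26, 3.70 and 6.16 in WT and 7.83, 7.09 and 7.21 in DKO. Its change was 0.77 ± 0.19 (adjusted p = 0.160, and 0.079 in the fit of windows listed in all 6 libraries).

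The strongest Msx2 site, 41.7 kb upstream (53514517 to 53515017, in an intron of Gm34022), was near equal in the genotypes. It gave 23.4, 19.2 and 22.5 in WT and 22, 18.4 and 20.2 in DKO, a change of 0.01 ± 0.11 (limma adjusted p = 0.998). Its centre with 100 bases on each side (chr13:53514667-53514867, minus strand) held AP-1 letters at 2 places and TEAD and RUNX letters that share bases. They are shown with the Msx2 site 29.6 kb upstream (chr13:53502530-53502730, minus strand) and the Runx1 site 75.2 kb downstream of the inner start (chr16:92620778-92620978, minus strand), the windows of smallest p at those loci, both of which also held AP-1 letters.
Msx2 41.7 kb upstream: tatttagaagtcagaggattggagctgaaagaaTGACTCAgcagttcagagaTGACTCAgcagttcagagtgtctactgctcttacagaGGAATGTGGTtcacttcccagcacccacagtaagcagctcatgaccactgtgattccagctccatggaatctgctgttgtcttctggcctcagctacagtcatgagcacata
Msx2 29.6 kb upstream: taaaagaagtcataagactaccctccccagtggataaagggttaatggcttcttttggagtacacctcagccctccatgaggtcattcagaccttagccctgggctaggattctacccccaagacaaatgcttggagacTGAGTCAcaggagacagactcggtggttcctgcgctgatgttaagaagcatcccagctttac
Runx1 75.2 kb downstream of the inner start: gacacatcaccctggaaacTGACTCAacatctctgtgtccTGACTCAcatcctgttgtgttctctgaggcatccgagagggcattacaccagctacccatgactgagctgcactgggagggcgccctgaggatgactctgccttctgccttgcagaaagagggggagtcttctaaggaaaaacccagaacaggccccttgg

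Dlx5 (ENSMUSG00000029755.10), on the minus strand of chromosome 6 (6877805 to 6882085), had the fewest windows, 9. Its start-site window (6881889 to 6882389) gave 4.71, 4.39 and 4.38 in WT, no summit in DKO replicate 1, and 5.69 and 3.38 in DKO replicates 2 and 3. The ranges overlapped, and the change was -0.41 ± 0.45 (limma adjusted p = 0.749) and 0.12 without DKO replicate 1, which listed a summit elsewhere within 1 kb of the start at 4.54. The sites 27.6 kb and 33.2 kb upstream, both intergenic, reached 12 ± 1.65 and 8.13 ± 1.37 in WT and 10.8 ± 2.87 and 6.70 ± 1.57 in DKO. A weak site 40.1 kb downstream (6841674 to 6842174), in an intron of the antisense gene Dlx6os1, gave 4.09, 4.55 and 5.87 in WT and 3.40 in DKO replicate 2 alone (change -1.17 ± 0.41, adjusted p = 0.281). The window was kept through the WT libraries, and DKO replicates 1 and 3 hold a substituted value. Its change and p are therefore not read as evidence of a difference.

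Alpl (ENSMUSG00000028766.10), on the minus strand of chromosome 4 (137741733 to 137796384), was open at its upstream start. At its downstream annotated start (137766475), none of the 6 libraries listed a summit within 1 kb. The window at the upstream start (137796244 to 137796744) had no summit in WT replicate 1, gave 3.13 and 5.28 in WT replicates 2 and 3 and 5.03, 5.10 and 4.92 in DKO. The DKO values lay within the WT range before scaling (change 0.92 ± 0.39, limma adjusted p = 0.389), and the change was 0.48 without WT replicate 1, which listed a summit elsewhere within 1 kb of that start at 4.09. The sites 39.7 kb upstream of that start and 35.6 kb downstream of the inner start, both intergenic, reached 14.8 ± 1.75 and 15.0 ± 4.39 in WT and 13.6 ± 1.01 and 12.2 ± 0.597 in DKO. A weak intron site 6.8 kb downstream of the inner start (137759415 to 137759915) gave 3.93, 5.98 and 4.79 in WT and 2.95 in DKO replicate 3 alone (change -1.22 ± 0.42, adjusted p = 0.278). This window too was kept through the WT libraries, and DKO replicates 1 and 2 hold a substituted value. Its change and p are likewise not read as evidence of a difference.

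**Figure D3:**
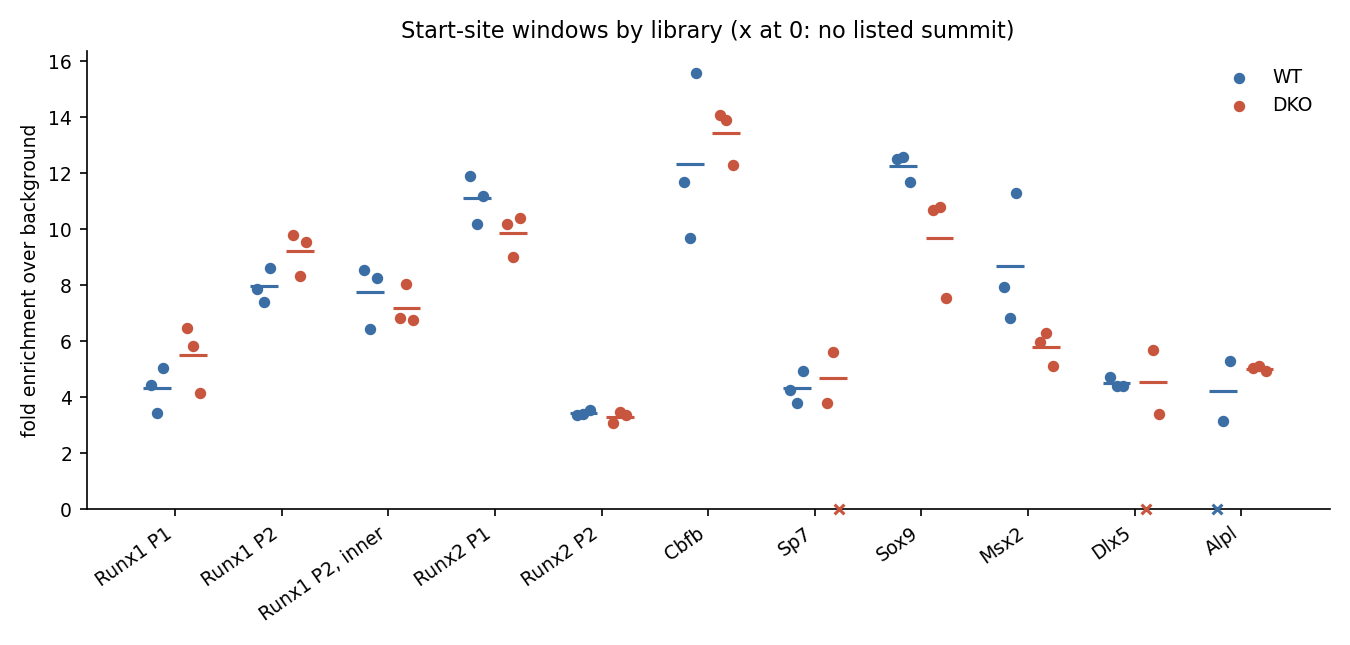
Fold enrichment over background (as deposited) of the start-site windows in each library, with WT in blue, DKO in red, bars at the mean of the listed values and crosses at 0 where a library lists no summit. Cbfb, Sox9 and Runx2 P1 lie highest, Runx2 P2 lowest at 3.09 to 3.54, and Runx3 has no window to plot.

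Ordered by mean fold enrichment over the libraries that listed them, the start-site windows ran from Cbfb at 12.9 ± 2.10 (SD), Sox9 at 11.0 ± 1.86 and Runx2 P1 at 10.5 ± 0.971. Next were Runx1 P2 at 8.60 ± 0.939, the start inside Runx1 P2 at 7.47 ± 0.911 and Msx2 at 7.24 ± 2.20. Then came Runx1 P1 at 4.90 ± 1.12, Alpl at 4.69 ± 0.883, Dlx5 at 4.51 ± 0.827, Sp7 at 4.48 ± 0.788 and Runx2 P2 at 3.37 ± 0.153. Neighbours in this order of fold enrichment differed by more than both of their SDs between Runx2 P1 and Runx1 P2 and between Runx1 P2 and the start inside it. They also did so between Msx2 and Runx1 P1 and between Sp7 and Runx2 P2, and not elsewhere. This order pools the genotypes. In WT alone Runx1 P2 (7.96 ± 0.624) and the start inside it (7.74 ± 1.15) were close and Msx2 was above both (8.68 ± 2.33). In DKO Msx2 was below them (5.79 ± 0.609) and close to Runx1 P1 (5.49 ± 1.2). Runx2 P1 (9.87 ± 0.749) and Runx1 P2 (9.23 ± 0.779) were also close in DKO, and Sox9 (9.69 ± 1.86) was below Runx2 P1. Among all 30376 windows within 1 kb of a start site, 79.7% had a lower mean than Cbfb, 33.2% than Sp7 and 10.3% than Runx2 P2. Other measures gave another order. By -log10 p Runx2 P1 ranked between 46359 and 76202, behind Runx1 P2 (16437 to 28543) and the start inside it (22547 to 40107). Summit pileups were 33 to 47 at Runx2 P1 and 86 to 135 at Runx1 P2. Runx2 P2 had pileups of 26 to 44, above those listed at Sp7 (14 to 19), Dlx5 (10 to 20) and Alpl (10 to 17).

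**Figure D4:**
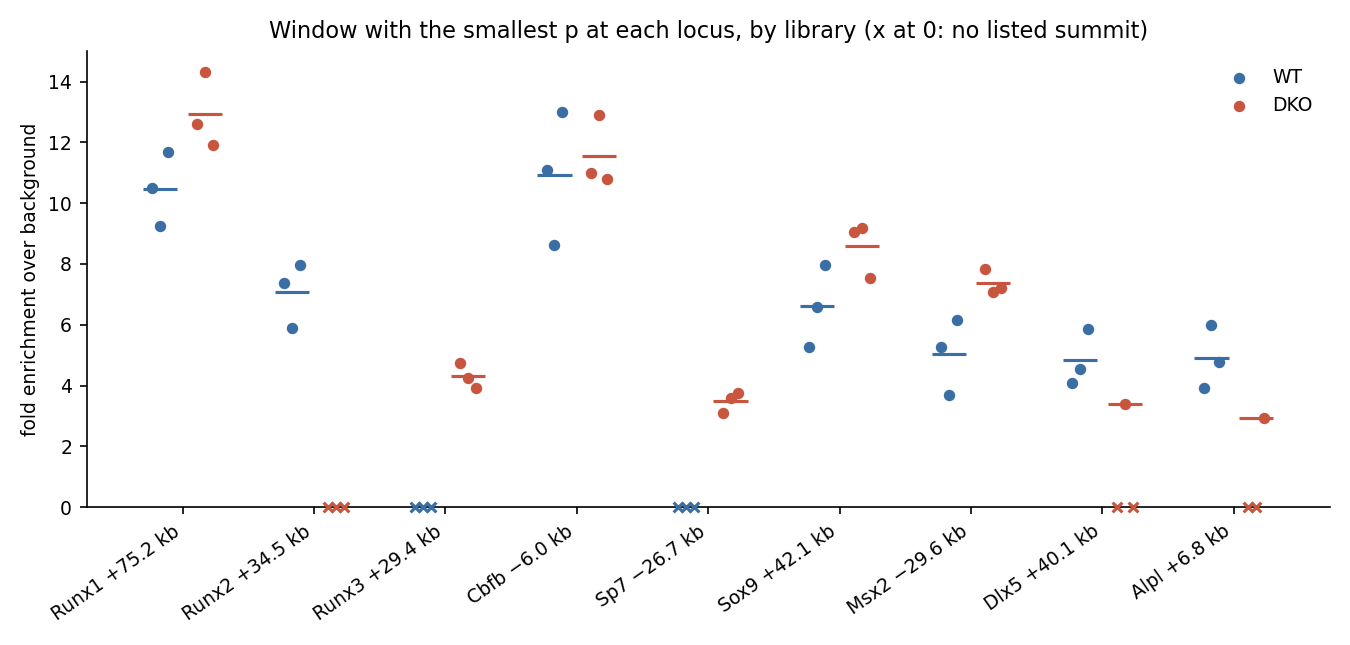
Fold enrichment (as deposited) in each library of the window with the smallest p at each locus among those not named as promoter or strongest distal site, labelled by its distance from the nearest start of the gene. Crosses at 0 are libraries with no listed summit. The Runx2 site is listed in WT only, the Runx3 and Sp7 sites in DKO only.

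The number of summits per library was also counted, since it does not depend on the windows. Over the 9 loci there were 443, 416 and 423 in WT and 455, 429 and 443 in DKO, a difference of 15.0 (two-sided exact permutation p = 0.30). With 3 against 3 libraries that test cannot go below 0.10. At Runx3 there were 28, 27 and 32 in WT and 34, 37 and 38 in DKO, and at Alpl 44, 46 and 46 in WT and 48, 50 and 54 in DKO. At these 2 loci the groups did not overlap, each with an exact permutation p of 0.10, the smallest possible and short of any threshold before adjustment over 10 comparisons. At Runx3 the excess lay outside the gene, since the gene body alone held 10, 13 and 13 in WT and 12, 13 and 10 in DKO. With one limit of -log10 p, 5.63, for all libraries, Runx3 had 21, 20 and 32 in WT and 29, 26 and 21 in DKO, and Alpl 36, 35 and 46 in WT and 38, 41 and 35 in DKO, so that neither difference was seen above that limit. Under it 3 other loci were apart and lower in DKO, each at the smallest exact permutation p of 0.10. Sp7 had 43, 43 and 45 in WT and 36, 36 and 42 in DKO, Sox9 17, 17 and 19 against 14, 16 and 14, and Dlx5 14, 13 and 11 against 10, 10 and 8. That limit is the lowest -log10 p of WT replicate 3, whose list stays whole while the others are cut. The share of all summits that each list keeps is not given here, so that these 3 loci are not read as a result. With the 50000 best summits of each library Runx1 was apart and higher in DKO (exact permutation p = 0.10). It had 11, 11 and 12 in WT and 15, 13 and 15 in DKO. With all listed summits the 7 loci other than Runx3 and Alpl overlapped, from 93 to 112 in DKO at Runx1 to 12 to 13 at Dlx5. Summits were densest at Sp7, with 41.0 per 100 kb, and sparsest at Dlx5, with 13.5.

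**Figure D5:**
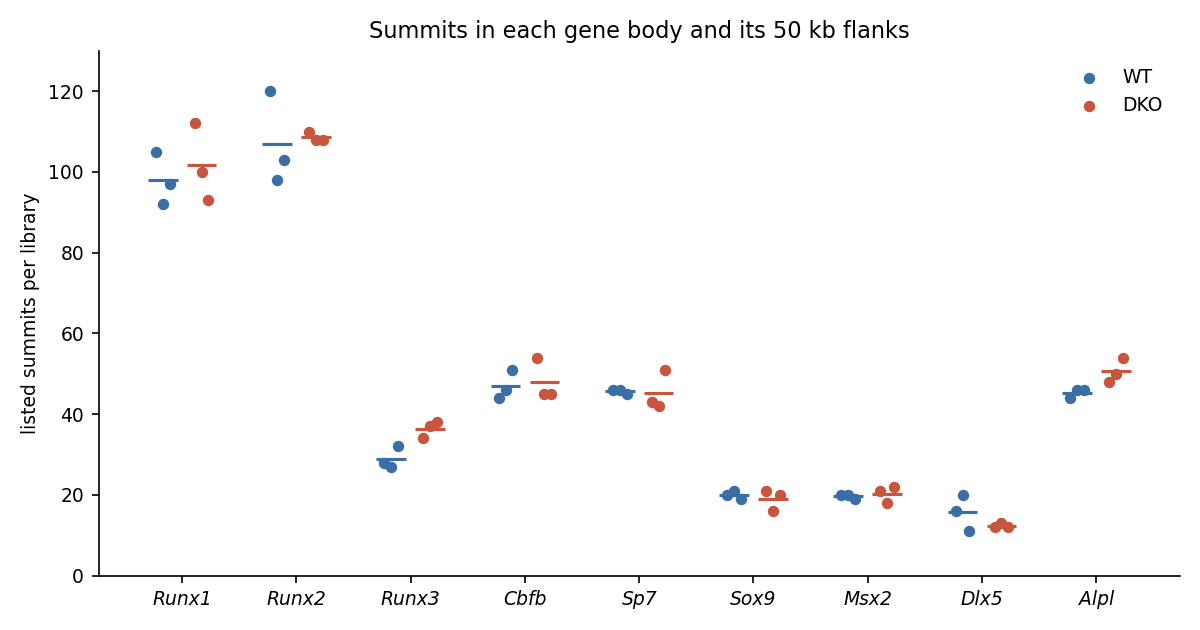
Listed summits per library in each gene body with 50 kb on either side, WT in blue, DKO in red, bars at the mean of 3 libraries. With all listed summits the groups are apart at Runx3 and Alpl and overlap at the other 7 loci.

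By class, 134 of the 255 windows lay in introns, 102 between genes, 10 in exons and 9 in UTRs, and 43 (16.9%) lay within 1 kb of a start of any gene, as did 16.9% of all windows. The share of windows with RUNX letters was 37.3% (35.3% of all windows), AP-1 31.0% (27.9%), TEAD 28.6% (30.4%), SOX 28.2% (35.8%), homeobox 11.8% (11.0%) and the GC box 17.6% (16.4%). AP-1 letters stood in 39.7% of the Runx2 windows and 6 of 12 windows each at Sox9 and Msx2, but in 2 of 22 at Cbfb and 2 of 23 at Sp7. A match of letters is a description of the sequence and not a measured binding site.

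The wider bone and cartilage genes were read at their start sites. Of 28 further transcription factors 25 had a window, 0 were called by limma in either direction, 2 had an unadjusted p under 0.05 and the median change was 0.08, the value over all 30376 start-site windows. The lowest were Dlx6 at -0.41 and Msx1 at -0.15 and the highest Sox5 at 0.96, where DKO replicate 3 at Dlx6 and WT replicate 2 at Sox5 had no summit and got the lowest value of their lists. Of 24 matrix and mineral genes 17 had a window, 0 were called, 2 had an unadjusted p under 0.05 and the median was 0.08. Hapln1, a cartilage link protein, was lowest at -0.99 (limma adjusted p = 0.389), then Ibsp at -0.97. Hapln1 had no summit in DKO replicate 2, and Ibsp had one in WT replicates 2 and 3 alone. Phospho1, a phosphatase of matrix vesicles, was highest at 0.70 (adjusted p = 0.169), with 7.10, 7.53 and 9.26 in WT and 9.28, 11.2 and 14.5 in DKO, then Enpp1 at 0.68, with no summit in WT replicate 1. Of 26 RUNX co-factors and signals 22 had a window, 0 were called, 4 had an unadjusted p under 0.05 and the median was 0.12. Over all start-site windows 10.8% had an unadjusted p under 0.05, against which the 2, 2 and 4 of these lists are to be read. Bmp2 at -0.55 and Pth1r, the parathyroid hormone receptor, at -0.46 were lowest. Bmp2 had no summit in WT replicate 2 and DKO replicates 1 and 2. Pth1r gave 4.57, 5.19 and 5.59 in WT and 3.37, 3.52 and 3.09 in DKO, without overlap (adjusted p = 0.462). In this list 1 window was lower and 4 were higher without overlap on the common scale, against 4.35% and 13.1% of all start-site windows. Fgfr2 was highest at 0.58 (adjusted p = 0.190), with 7.23, 9.19 and 10.1 in WT and 10.2, 13.9 and 10.9 in DKO, followed by Smad1 at 0.46.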

How the data were processed

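The 6 deposited files are peak lists of ATAC-seq libraries of mouse preadipocytes. Per the labels and the study's methods, the authors sequenced 50 bp paired-end reads, trimmed them (cutadapt 1.18), mapped them to mm10 with Bowtie2 (2.3.4.3), removed duplicate and mitochondrial reads and called peaks per library with MACS2. In each deposited list the fold enrichment is a ratio of summit pileup to local background, each with 1 added, and the authors' p- and q-values are given as -log10. Read totals are not given in the sources used here, so that the depth behind each value is known only through the summit pileup, which was solved from each fold enrichment and Poisson p and was at least 8 to 12 in every library.

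Summits were gathered, strongest first, into non-overlapping windows of about 0.5 kb, kept where at least 2 libraries had a summit at q under 0.01. A library without a summit got the lowest fold enrichment of its list. Log2 values were quantile-normalised and tested with limma 3.58.1 (R 4.3.3; lmFit, eBayes with trend), Benjamini-Hochberg adjusted over all 179248 windows. Counts of summits were compared with exact permutation tests. Named windows were, for each gene, the highest at each start-site cluster, the 2 highest over 1 kb from any start, any past the threshold and the one of the rest with the smallest p. For the other lists they were any start-site window past the threshold and the 2 lowest and 2 highest changes. The scripts were tested on simulated data. The genes, lists and tests were chosen with earlier results of these data known. Replicate numbers did not pair the libraries (correlations of deviations 0.00542, -0.0115 and -0.00715). Other scalings, windows, subsets and left-out libraries were tried. Gene models were GENCODE M21 and RefSeq. Amino acid sequences were not used here, and 1 gene and 1 sequence that the rules would name are not reported here.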

Additional observations from a re-analysis of the deposited data

How the results depend on the processing

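The counts of windows called at the 9 loci were 0 lower and 0 higher without scaling, by rank, by summit pileup, with windows of about 1 kb, in the fit of windows listed in all 6 libraries and with each library left out (0 to 0 lower and 0 to 0 higher). With a library left out the calls over all 179248 windows were themselves 0 to 1 lower and 0 to 6 higher, so that the 0 at these loci says little. Median centring called 1 lower, the Runx2 site 34.5 kb downstream of P2. The 50000 best summits of each library called 1 lower, at Runx2 85.1 kb downstream of P2 (-1.75, limma adjusted p = 0.0325), and 1 higher, at Runx3 37.2 kb downstream of P2 (1.83, adjusted p = 0.0285). In that setting fewer windows are tested, 62 at these loci, weaker summits count as missing, and the 1.61% called in each direction stands beside 1.4% lower and 0.754% higher of all windows. The test without trend called 2 lower and 4 higher, which were the 6 windows listed in one genotype only (0.784% and 1.57%, against 1.17% and 1.14% of all windows). With the replicate number as a block 0 were called lower and 0 higher, the smallest adjusted p was 0.339 and the count over all windows fell to 0, and the numbers did not pair the libraries.

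Windows listed in WT only numbered 1 with the 50000 best summits and 1 with windows of about 1 kb, and 2 to 5 with a library left out. Those listed in DKO only numbered 1 with the 50000 best summits and 0 where the peak interval had to cover 0.5 of the window, and 5 to 8 with a library left out. Windows without overlap numbered 9 with the 50000 best summits, 28 by interval and 65 to 76 with a library left out, where smaller groups overlap less often by construction, and 39 without scaling, an alternative chosen after seeing the data. The difference in summits over the 9 loci turned to -4.00 (exact permutation p = 0.20) with the 50000 best summits and -23.0 (p = 0.60) with one -log10 p limit, and was 8.67 to 22.8 with a library left out.

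Of 20 named windows with a test, 5 changed sign in 14 of 276 values. Leaving out the scaling moves the median of all windows to -0.14, so that a change of sign there says nothing of the window itself. The start inside Runx1 P2 went to -0.10 without scaling, -0.11 by rank and -0.20 by pileup, Runx2 P1 to -0.17 without scaling, -0.01 by rank and -0.10 to 0.11 with a library left out, and Runx2 P2 to -0.06, -0.00 and -0.01 without scaling, by rank and by pileup. The Alpl start-site change moved from 0.92 to 0.48 without WT replicate 1. With a library left out Sp7 ran from -0.72 to 0.22 and Dlx5 from -0.84 to 0.12, turning without DKO replicates 3 and 1, and Dlx5 was 0.06 with windows of about 1 kb. All 18 levels of distal sites stayed within 1 SD when a library was left out. Each list ends at its own lowest -log10 p, so that a site missing from a list may still be open at a lower level.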
